A study of Mus musculus with 4 samples.

Results

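V(D)J recombination, the cutting and rejoining of DNA that assembles T cell receptor genes, was followed through 10 genes: Rag1, Rag2, Dntt, Xrcc6, Xrcc5, Prkdc, Dclre1c, Xrcc4, Lig4 and Nhej1. They were picked by gene symbol, and all 10 were found among the 53715 genes of the deposited tables. The libraries, 2 WT and 2 KO, are labelled as CD4+CD8+ cells from the thymus of C57BL/6 mice aged 6 to 8 weeks. The KO genotype is given as LCKCre/+ Srsf1fl/fl, in which Cre driven by Lck, a gene active in thymocytes, deletes the floxed Srsf1. Srsf1 encodes an SR protein that acts in splice site choice, and the comparison asks how its loss alters gene expression at this stage. The labels do not say whether WT mice carried Cre or floxed alleles, nor whether each replicate was a separate animal. The p-values therefore reflect how far these samples spread, which may be technical.

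In V(D)J recombination the RAG1 and RAG2 proteins together cut DNA beside V, D and J segments and leave hairpin-sealed coding ends. The Ku heterodimer (Ku70 from Xrcc6, Ku80 from Xrcc5) binds the ends and recruits DNA-PKcs (Prkdc), which activates the nuclease Artemis (Dclre1c) to open the hairpins. Terminal transferase (Dntt) adds bases without a template, and XRCC4, DNA ligase IV (Lig4) and XLF (Nhej1) seal the joint. CD4+CD8+ thymocytes rearrange the T cell receptor alpha locus, and Rag expression is shut off once a thymocyte is positively selected.

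The libraries held 35862730 to 37033180 counts. Srsf1 had 134 and 123 counts-per-million (CPM) in WT and 49.7 and 48.7 CPM in KO, which is -1.39 in log2 fold change (SE 0.09, adjusted p = 2.91e-06). Adjusted p-values throughout are from edgeR's quasi-likelihood test of 16588 genes, and genes with an adjusted p below 0.05 count as called. All 10 genes passed the filter on low counts. Of the 10, 4 rose in KO (Rag1, Rag2, Dntt and Prkdc) and 1 fell (Dclre1c), whereas 5 were not called (Xrcc6, Xrcc5, Xrcc4, Lig4 and Nhej1). Over all genes tested 14.5% were called, 6.63% as higher in KO and 7.89% as lower. At an unadjusted p below 0.05 the same 5 of the 10 passed, against 27.4% of all genes. The KO libraries lay wholly above WT for 4 of the 10 and wholly below for 1, against 27.8% and 28.1% of all genes, or 55.9% in either direction. The median log2 fold change of the 10 genes was 0.07 and that of all genes tested was 0.0022.

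**Figure D1:**
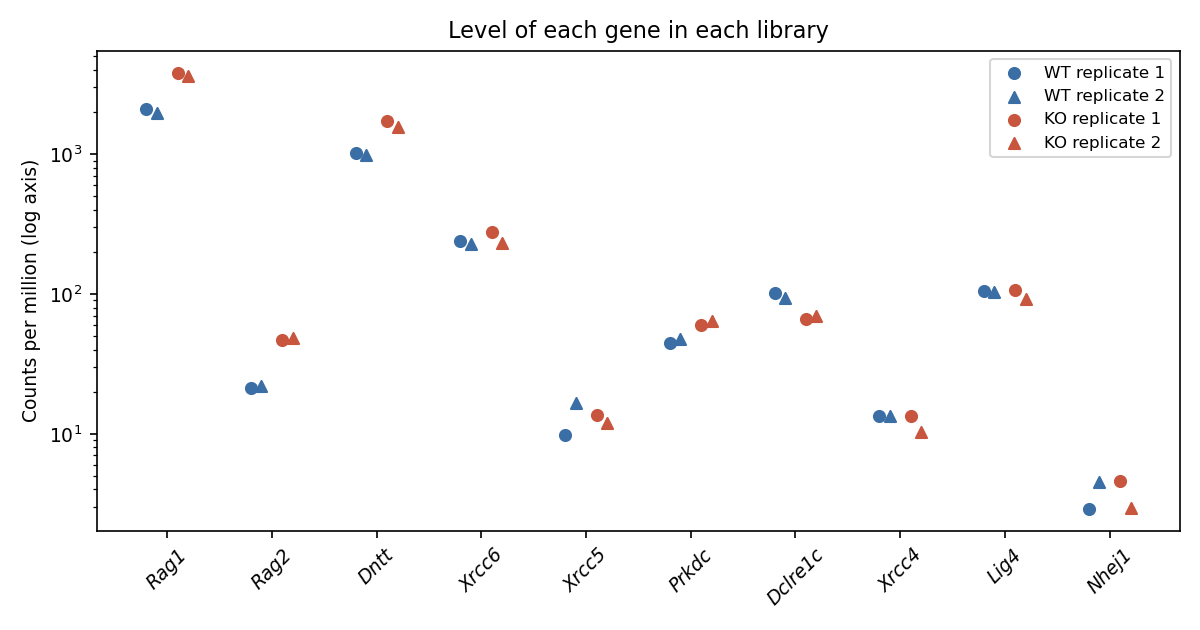
Counts-per-million of the 10 genes (log axis) in each of the 4 libraries, with WT in blue and KO in red. Rag1, Rag2, Dntt and Prkdc lie higher in both KO libraries than in both WT libraries, Dclre1c lies lower, and the groups overlap for the other 5 genes.

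Both subunits of the recombinase rose. Rag1, the subunit that carries the DNA-cutting active site (chromosome 2, 101638282 to 101649501, minus strand, GRCm38), had 2092 and 1966 CPM in WT and 3833 and 3640 CPM in KO. The lower KO library thus stood well above the higher WT library. The fold change was 1.84 (95% interval 1.69 to 2.01), or 0.88 log2 units (SE 0.06, adjusted p = 2.00e-06). Rag2, the partner that binds a chromatin mark of active genes (chromosome 2, 101624718 to 101632529, plus strand), had 21.2 and 22.0 CPM in WT and 47.2 and 48.6 CPM in KO. Its groups did not overlap either, and it rose 2.22-fold (1.80 to 2.73), or 1.15 log2 units (SE 0.14, adjusted p = 0.000206).

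The Rag genes lie next to each other on opposite strands and point towards each other. Both lie within a longer gene, B230118H07Rik in the GENCODE annotation, which the deposited table lists under a clone name. It shares 80 exonic bases with Rag1 on the same strand (1.21% of the exonic length of Rag1) and 208 with Rag2 on the opposite strand (6.07%). Whether counting used strand is not given in the sources used here, and reads from these stretches cannot be told apart. B230118H07Rik had 12.2 and 13.5 CPM in WT and 7.43 and 9.40 CPM in KO, which is lower in both KO libraries without passing the test (log2 fold change -0.61, SE 0.24, adjusted p = 0.123). Of the other neighbours, Traf6, a ubiquitin ligase of innate immune signalling, had 244 and 275 CPM in WT and 198 and 199.5 CPM in KO and fell (-0.38, SE 0.08, adjusted p = 0.00739). Leaving out WT replicate 2 removed the Traf6 call (adjusted p = 0.075). Prr5l had at most 17 counts in a library and was not called (adjusted p = 0.891).

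Rag1 was by far the more abundant of the pair per unit of length. The ratio of Rag1 to Rag2 in RPKM (CPM divided by gene length in kilobases, from the authors' deposited table) was 51.1 and 46.2 in WT and 42.1 and 38.8 in KO. The ratio was lower in both KO libraries, and an exact two-sided permutation test gave p = 0.333, the smallest value that 2 against 2 libraries allow.

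Dntt, whose product diversifies receptor joints (chromosome 19, 41029275 to 41059525, plus strand), rose together with the Rag genes. It had 1013 and 978 CPM in WT and 1715 and 1576 CPM in KO, again without overlap. The fold change was 1.65 (1.5 to 1.82), or 0.73 log2 units (SE 0.06, adjusted p = 1.86e-05). The ratio of Rag1 to Dntt in RPKM was 0.665 and 0.647 in WT and 0.720 and 0.744 in KO (exact permutation p = 0.333), higher in both KO libraries.

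Because Rag1, Rag2 and Dntt rose and Dclre1c fell, the 250 bases before the RefSeq start of these 4 genes are shown for reference (build GRCm38.p6, 5′ to 3′ on the strand of the gene). Capitals mark E-boxes (CANNTG), the motif bound by E proteins such as E2A (Tcf3) and HEB (Tcf12). The windows are chr2:101649533-101649782 on the minus strand for Rag1, chr2:101624462-101624711 on the plus strand for Rag2, chr19:41029025-41029274 on the plus strand for Dntt and chr2:3423881-3424130 on the plus strand for Dclre1c.
Rag1: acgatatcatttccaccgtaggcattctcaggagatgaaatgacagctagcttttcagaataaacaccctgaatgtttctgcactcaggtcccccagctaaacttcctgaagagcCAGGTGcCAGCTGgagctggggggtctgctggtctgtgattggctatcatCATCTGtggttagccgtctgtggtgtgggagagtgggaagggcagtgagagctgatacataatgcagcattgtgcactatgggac
Rag2: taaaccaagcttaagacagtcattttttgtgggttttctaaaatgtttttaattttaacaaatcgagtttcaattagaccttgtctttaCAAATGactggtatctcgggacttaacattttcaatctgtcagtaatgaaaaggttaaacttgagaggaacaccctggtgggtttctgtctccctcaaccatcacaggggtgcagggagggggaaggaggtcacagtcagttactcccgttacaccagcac
Dntt: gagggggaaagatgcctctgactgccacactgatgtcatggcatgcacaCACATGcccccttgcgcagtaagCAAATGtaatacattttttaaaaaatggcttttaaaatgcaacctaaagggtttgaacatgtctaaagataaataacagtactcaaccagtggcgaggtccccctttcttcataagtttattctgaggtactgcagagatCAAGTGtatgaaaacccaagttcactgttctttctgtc
Dclre1c: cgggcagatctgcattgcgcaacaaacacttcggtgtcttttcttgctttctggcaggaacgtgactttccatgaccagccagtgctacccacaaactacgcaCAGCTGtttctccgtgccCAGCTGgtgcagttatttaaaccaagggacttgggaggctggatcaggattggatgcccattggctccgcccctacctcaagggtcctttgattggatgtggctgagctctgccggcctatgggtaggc

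An E-box was found 3 times in the window of Rag1, 1 time in that of Rag2, 3 times in that of Dntt and 2 times in that of Dclre1c. Of 32817 promoter windows of the same length, 66.2% held at least 1. With both strands searched, the exact word GTAAACA of the FOXO motif (in 3.16% of windows) was found in none of the 4. Variants of this word were not searched, so ataaaca in the Rag1 window was not counted. A MYB core (AACNG, in 74.2%) was found 2 times each in the windows of Rag2, Dntt and Dclre1c and not in that of Rag1. A MYB match overlapped an E-box in the Dclre1c window. An ETS motif (GGAAGT, in 19.7%) was found in the Rag1 window and a TCF/LEF motif (CTTTGA, in 13.8%) in the Dclre1c window. The GC content of the windows was 50.8% for Rag1, 41.2% for Rag2, 41.6% for Dntt and 54.8% for Dclre1c, against a median of 52.4% over all windows. The letters describe these windows and were not tested as binding sites.

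**Figure D2:**
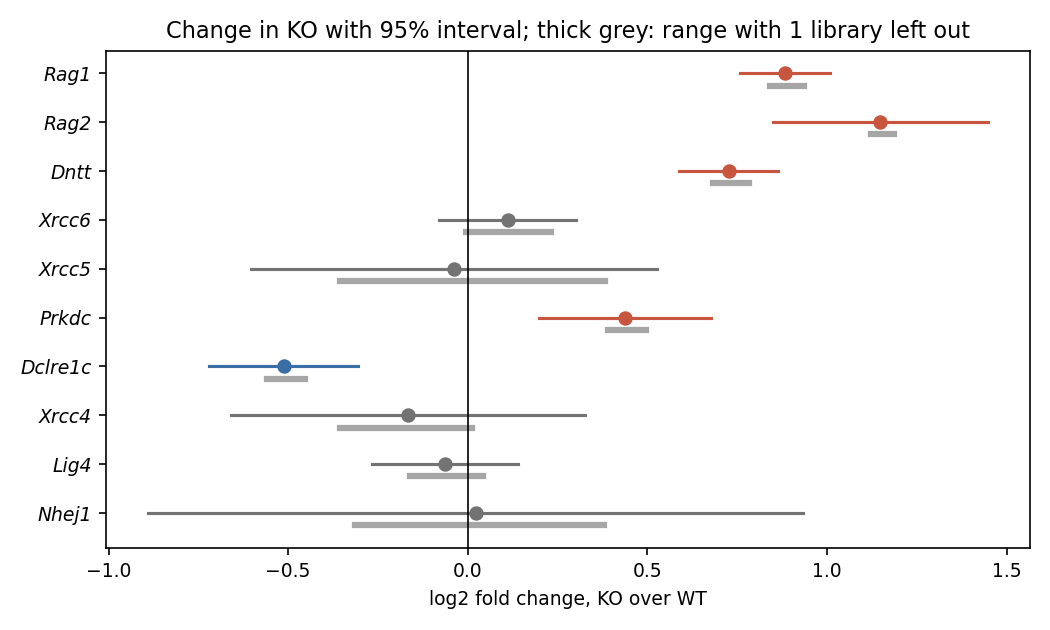
Log2 fold change of each gene in KO over WT (point) with its 95% interval (thin line, 2 libraries per group), red where called higher, blue where called lower and grey where not called. The thick grey bar gives the lowest and highest value when each library was left out in turn, which stays on the same side of 0 for Rag1, Rag2, Dntt, Prkdc and Dclre1c.

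The genes that act on the cut ends moved in different directions. Prkdc, the catalytic subunit of the DNA-dependent protein kinase (chromosome 16, 15637866 to 15842235, plus strand), had 44.3 and 47.5 CPM in WT and 60.3 and 63.9 CPM in KO. The groups did not overlap, and the gene rose 1.35-fold (1.15 to 1.60), or 0.44 log2 units (SE 0.11, adjusted p = 0.0190). This call depended on single libraries, since it was lost without WT replicate 1 (0.39 log2 units, adjusted p = 0.0907) and without KO replicate 2 (0.39, adjusted p = 0.0520).

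Dclre1c, which encodes the hairpin-opening nuclease Artemis (chromosome 2, 3424131 to 3464130, plus strand), was the member that fell. It had 101 and 94.1 CPM in WT and 66.5 and 70.0 CPM in KO, with every KO value below every WT value. Its KO level was 0.701 of the WT level (0.607 to 0.810), or -0.51 log2 units (SE 0.10, adjusted p = 0.00350). Its call was lost when limma was run on log2 RPKM, with adjusted p = 0.0836, 0.0753 and 0.0502 at 3 settings of pseudocount and filter, and so was that of Prkdc (0.217, 0.214 and 0.15). Dclre1c shares 357 exonic bases (3.83% of its exonic length) with Suv39h2, a histone methyltransferase gene on the opposite strand. Suv39h2 had 32.0 and 31.4 CPM in WT and 17.9 and 19.4 CPM in KO and fell too (-0.76, SE 0.16, adjusted p = 0.00752). The part of shared reads in either result was not tested. The ratio of Prkdc to Dclre1c in RPKM went from 0.310 and 0.357 in WT to 0.640 and 0.645 in KO (exact permutation p = 0.333).

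The Ku subunits did not pass the test. Xrcc6, which encodes Ku70 (chromosome 15, 81987835 to 82040085, plus strand), had 240 and 229 CPM in WT and 275 and 230 CPM in KO. The second KO library lay between the WT libraries, and the log2 fold change was 0.11 with a 95% interval of -0.08 to 0.30 (adjusted p = 0.480). Xrcc6 shares 344 exonic bases (7.69%) with Desi1 on the opposite strand. Xrcc5, which encodes Ku80 (chromosome 1, 72307421 to 72394952, plus strand), had 9.87 and 16.5 CPM in WT and 13.7 and 12.0 CPM in KO. Both KO libraries lay between the WT libraries (-0.04, interval -0.60 to 0.53, adjusted p = 0.958). The ratio of Xrcc6 to Xrcc5 in RPKM ranged from 7.92 to 13.9, both extremes being WT libraries.

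None of the 3 ligation genes was called. Lig4, the ligase (chromosome 8, 9969049 to 9977686, minus strand), had 105 and 103 CPM in WT and 107 and 91.8 CPM in KO. The KO libraries thus lay on either side of the WT pair (log2 fold change -0.06, interval -0.27 to 0.14, adjusted p = 0.755). Xrcc4, the scaffold that binds and stabilises ligase IV (chromosome 13, 89774027 to 90089608, minus strand), had 13.4 CPM in each WT library and 13.5 and 10.3 CPM in KO (-0.17, interval -0.66 to 0.33, adjusted p = 0.724). It shares 112 exonic bases (2.66%) with Tmem167 on the opposite strand. Nhej1, which encodes XLF (chromosome 1, 74967139 to 75125200, minus strand), had only 104 and 165 counts in WT and 170 and 107 counts in KO. Its interval of -0.89 to 0.93 log2 units (adjusted p = 0.984) includes both no change and a change as large as that of Rag1. The interval of Lig4, and that of Xrcc6, do not reach the size of the Dclre1c or Rag1 change.

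The members differed widely in level. In WT, Dntt (468 ± 11.7 RPKM, SD, n = 2) and Rag1 (307 ± 13.5 RPKM) led, followed by Xrcc6 (52.4 ± 1.67), Lig4 (20.0 ± 0.337) and Dclre1c (10.5 ± 0.517). Rag2 (6.32 ± 0.171 RPKM), Xrcc5 (5.16 ± 1.84), Prkdc (3.48 ± 0.172), Nhej1 (3.32 ± 1.02) and Xrcc4 (3.18 ± 0.00806) came last. In WT the libraries of Rag2 and Xrcc5, of Prkdc and Nhej1, and of Nhej1 and Xrcc4 overlapped, so the order within these pairs is not resolved, and all other neighbours in the order stood apart. In KO the first 4 places were the same, and Rag2 (14 ± 0.291 RPKM) stood above Dclre1c (7.33 ± 0.267 RPKM), the reverse of their order in WT. The KO libraries overlapped for Xrcc5 and Prkdc and for Nhej1 and Xrcc4.

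**Figure D3:**
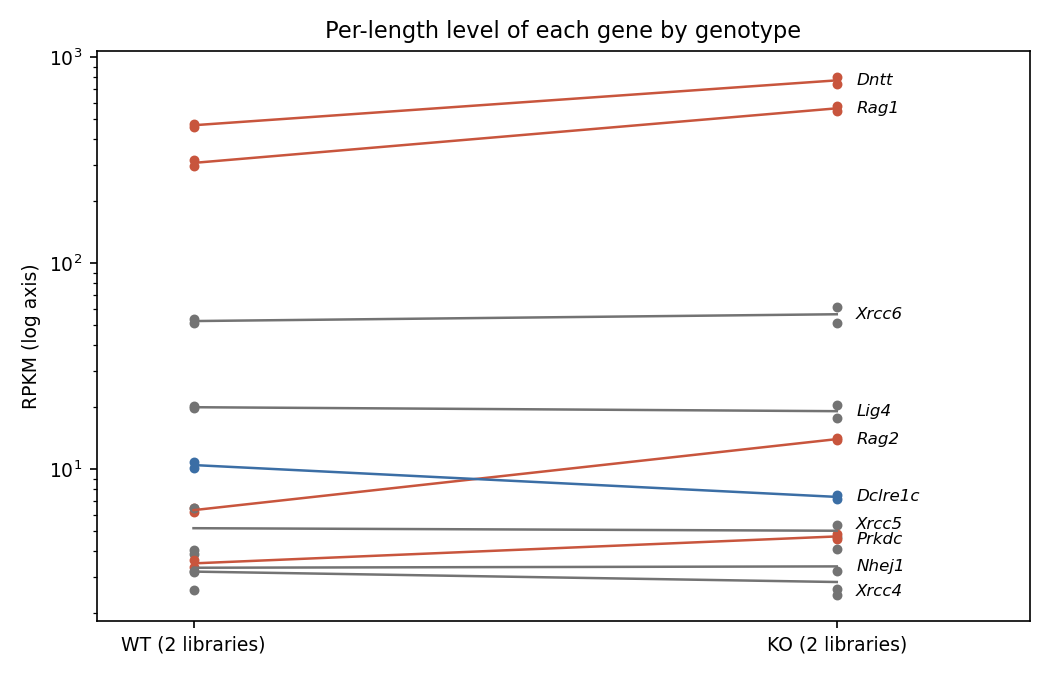
RPKM of the 10 genes (log axis) in the WT and KO libraries, with a point for each library and a line between group means, red where the gene was called higher in KO, blue where called lower and grey where not called. The lines of Rag2 and Dclre1c cross between WT and KO.

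The spread between replicates differed between genes. The coefficient of variation in CPM was 4.40% in WT and 3.66% in KO for Rag1, 35.6% and 9.58% for Xrcc5, and 30.9% and 31.0% for Nhej1, the least abundant in CPM. In gene structure the members fell into 2 kinds. The annotated coding sequence of Rag1, Rag2 and Lig4 lies in 1 exon each. That of the others is split over 5 exons in Nhej1, 7 in Xrcc4, 12 in Dntt and Xrcc6, 14 in Dclre1c, 21 in Xrcc5 and 86 in Prkdc. Genes that rose were found in both kinds. Gene counts do not resolve isoforms, so splicing of the members was not analysed here.

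The other genes of end joining and break repair were followed in fixed lists. The counts in these lists stand beside 14.5% of all genes tested that were called, 6.63% as higher in KO and 7.89% as lower. Of 12 accessory end-joining factors 2 fell, 0 rose and 10 were not called. Rnf138, a ubiquitin ligase that acts on Ku at breaks, had 94.2 and 79.3 CPM in WT and 60.2 and 64.0 CPM in KO (log2 fold change -0.48, adjusted p = 0.0118). Tdp2, which clears topoisomerase remnants from ends, had 124 and 113 CPM in WT and 102 and 84.6 CPM in KO (-0.35, adjusted p = 0.0352). Without WT replicate 1 both calls were lost (0.118 and 0.173), and without KO replicate 2 that of Tdp2 was lost (0.153, at -0.23 log2 units). The median of the list was -0.0070.

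Of 15 tested genes of break sensing and end protection 1 rose and 0 fell. It was H2afx, the histone variant phosphorylated beside breaks, with 133 and 140 CPM in WT and 193 and 158 CPM in KO (0.36, adjusted p = 0.0227). Leaving out WT replicate 1 (adjusted p = 0.059) or KO replicate 1 (0.12, at 0.23 log2 units) removed this call. H2afx shares 10.2% of its exonic length with Gm44335 on the opposite strand. Of 8 genes of alternative end joining 2 rose and 0 fell, and the list median was 0.27. DNA ligase I, Lig1, had 76.2 and 78.8 CPM in WT and 137 and 98.5 CPM in KO (0.60, adjusted p = 0.00710), and the change was 0.37 without KO replicate 1. DNA ligase III, Lig3, rose (0.45, adjusted p = 0.0408). With WT replicate 1, WT replicate 2 or KO replicate 1 left out its log2 fold change was 0.44, 0.46 and 0.37, and the call was lost (adjusted p = 0.119, 0.0891 and 0.181). Lig3 shares 25.1% of its exonic length with Rffl on the opposite strand.

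Among 9 cofactors and protein partners of RAG, 1 rose and 1 fell. The importin genes Kpna1 and Kpna2 encode nuclear import receptors that bind RAG1. Kpna1 had 165 and 160 CPM in WT and 81.4 and 73.0 CPM in KO and fell (-1.07, SE 0.09, adjusted p = 1.29e-05). Kpna2 had 42.9 and 42.6 CPM in WT and 63.5 and 51.4 CPM in KO and rose (0.43, SE 0.13, adjusted p = 0.0389). The same omissions gave Kpna2 0.44, 0.42 and 0.29 log2 units and ended its call (adjusted p = 0.0651, 0.0734 and 0.255). Hmgb1, a DNA-bending protein that aids RAG cutting and was named after its values were seen, had 958 and 973 CPM in WT and 1043 and 950 CPM in KO (0.05, adjusted p = 0.728).

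Of 22 tested transcription factors linked to Rag expression 4 fell and 4 rose. Foxo1, an activator of Rag transcription in lymphocytes, had 253 and 259 CPM in WT and 93.8 and 75.5 CPM in KO, and its log2 fold change was -1.59 (SE 0.10, adjusted p = 1.21e-06). Foxo1 shares 7.78% of its exonic length with Gm20402 on the opposite strand. Myb (-0.50, adjusted p = 0.000337) and the repressor gene Gfi1 (-0.59, adjusted p = 0.000427) fell as well. The other calls fall outside the rule for naming and were chosen after their values were seen. Tcf12, which encodes the E protein HEB, fell (-0.25, adjusted p = 0.0457), and Tcf3, which encodes the E protein E2A, rose from 377 and 355 CPM to 485 and 490 CPM (0.42, adjusted p = 0.00194). Tcf7, which encodes TCF-1, rose (0.39, adjusted p = 0.000493), and so did Ets1 (0.24, adjusted p = 0.0142) and Nfkb1 (0.27, adjusted p = 0.0495). Single libraries decided the calls of Tcf12 (adjusted p = 0.488 without WT replicate 2 and 0.0605 without KO replicate 2), Ets1 (0.106 without WT replicate 1 and 0.0521 without WT replicate 2) and Nfkb1 (0.329 without WT replicate 1 and 0.0971 without KO replicate 2). On log2 RPKM, limma at each of those 3 settings called 6 of the 16 list genes called here, which were Foxo1, Myb, Gfi1, Kpna1, Tcf3 and Tcf7. The list median was -0.09, and without WT replicate 1 the number of its genes that rose was 2.

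**Figure D4:**
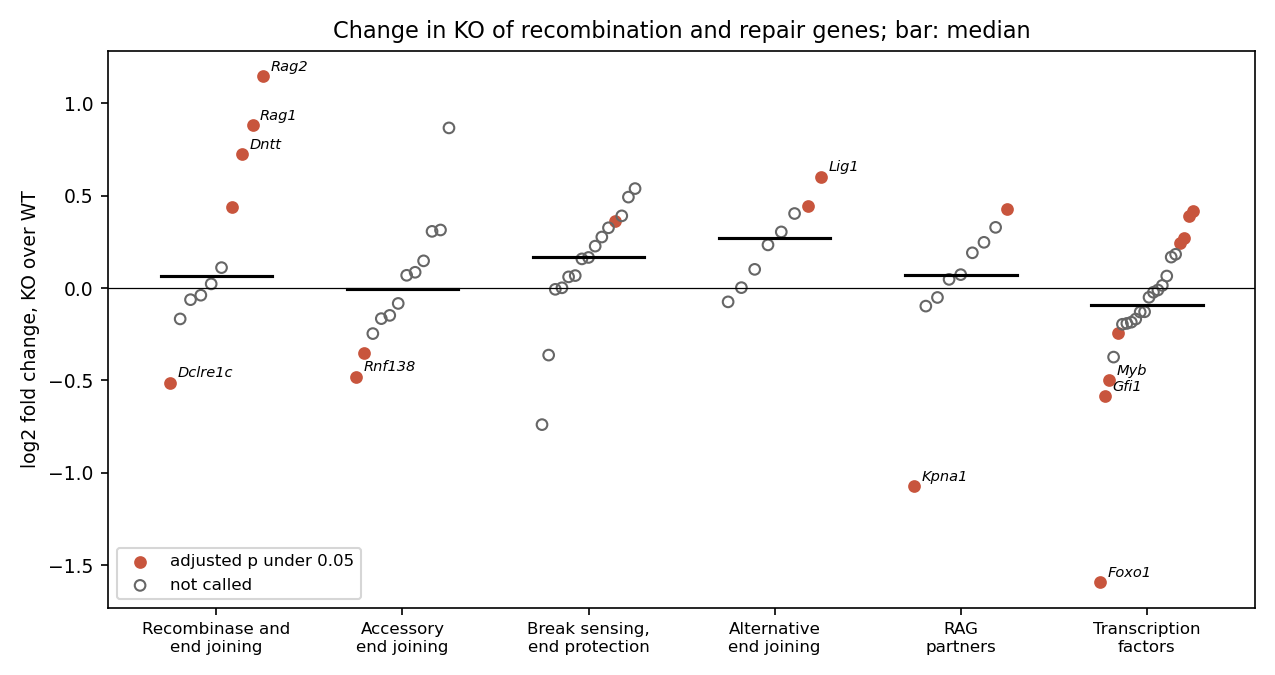
Log2 fold change in KO over WT of the 10 recombination genes and of the tested genes of 5 related lists, with filled points for genes called at an adjusted p under 0.05, open points for genes not called and a bar at the median. The highest point in the first column is Rag2 at 1.15 and the lowest in the last column is Foxo1 at -1.59.

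Markers of cell stage and cell type moved beside these genes. In bulk libraries fewer cells of a type and less RNA per cell cannot be told apart. Markers listed for the labelled CD4+CD8+ stage had a summed level of 5391 to 5533 CPM in WT and 6414 to 6474 CPM in KO. Of these 8 markers 3 rose (Cd8b1, Cd8a and Ptcra). Ptcra, which also marks the earlier CD4-CD8- stage, had 12.5 and 17.6 CPM in WT and 22.5 and 25.2 CPM in KO. The adjusted p of Cd8a was 0.115, 0.219 and 0.064 without WT replicate 1, WT replicate 2 and KO replicate 1 respectively. That of Ptcra rose to 0.283 when WT replicate 1 was left out and to 0.125 for KO replicate 2. Of 12 proliferation markers 8 rose, among them Mki67, Bub1b and Cenpe, with a summed level of 1568 to 1690 CPM in WT and 2007 to 2448 CPM in KO, and 5 rose without KO replicate 1. Of 9 markers of mature thymocytes, which have shut off Rag expression, 4 fell and 1 rose, with a summed level of 581 to 624 CPM in WT and 483 to 514 CPM in KO. Ccr7, the homing receptor of that stage, had 39.1 and 43.95 CPM in WT and 10.4 and 11.7 CPM in KO.

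Markers of other cell types were measured too. Of 6 tested B lineage markers 2 rose (Ighm and Cd79b), with a summed level of 232 to 239 CPM in WT and 359 to 366 CPM in KO that came mostly from Ighm (226 and 221 CPM in WT, 344 and 336 CPM in KO, adjusted p = 0.000182). Leaving out WT replicate 2 (adjusted p = 0.0976) or KO replicate 2 (0.0744) removed the Cd79b call. No tested marker in the lists for immature CD4-CD8- thymocytes, myeloid cells, thymic epithelium or erythroid cells was called. The first of these lists leaves out Ptcra. The summed levels of the lists reached at most 26.4, 22.6, 13.4 and 5.26 CPM. The tested epithelial markers were Epcam (8.22 to 11.5 CPM, adjusted p = 0.800), Krt8 (0.11 to 0.72 CPM, 0.408) and Psmb11 (1.13 to 1.48 CPM, 0.986). Of the 7 markers in that list, 2 (Foxn1 and Krt5) were at 0 in all 4 libraries. The tested erythroid markers were Hba-a1 (0.421), Hba-a2 (0.861), Hbb-bs (0.554) and Alas2 (0.506). The part of any of these markers in the changes of Rag1, Rag2, Dntt, Prkdc and Dclre1c was not tested.

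Genes with the profile nearest to each of Rag1, Rag2 and Dntt were ranked by the root mean square distance of log2 CPM, centred on the gene's own mean, over the 4 libraries and 9702 other genes of at least 5 CPM. For Rag1 they were Sdcbp2 (0.028), Zfp60 (0.029) and Papola (0.030), and Dntt held rank 30 and Rag2 rank 207. Sdcbp2 itself had 4.32 and 4.16 CPM in WT and 8.21 and 7.42 CPM in KO and was not called (adjusted p = 0.0752). For Rag2 the nearest genes were Prdx3 (0.040), Arv1 (0.044) and Ppp1r35 (0.057), with Rag1 at rank 39. For Dntt they included Brms1l (0.019) and Ddah2 (0.031), with Rag1 at rank 106.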

How the data were processed

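RNA sequencing counts of 4 libraries were analysed. The authors deposited raw counts per gene for each library. They also deposited RPKM values with a gene length, and each value equals the count divided by length and library total within a relative tolerance of 1e-06. STAR 2.6.0a, HTSeq 0.6.1, DESeq2 1.24.0, cutadapt 1.17 and FastQC 0.11.5 are named with GRCm38 (mm10), per the submitters' processing notes, whereas strand and settings were not given in the sources used here.

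Counts were tested in R 4.3.3 by quasi-likelihood in edgeR 4.0.16, with filterByExpr, TMM factors, a robust fit, genotype as the only term and Benjamini-Hochberg adjustment. SEs and 95% intervals were derived from the F statistic. CPM used total counts, of which 1 was worth 0.0270 to 0.0279 CPM. Replicate libraries differed by more than sampling noise (chi-square over degrees of freedom 16.7 and 19.0). Coordinates came from GENCODE release M21 (53620 identifiers matched) and promoters from RefSeq, which had entries for 9 of the 10 genes (not Prkdc).

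The members and lists were chosen with earlier results of these data known. Named genes were the members, Srsf1, up to 3 called genes with the smallest adjusted p per list and every tested gene of lists with 5 or fewer tested, with the 3 genes nearest in profile to Rag1, Rag2 and Dntt. Hmgb1, Tcf3, Tcf7, Ets1, Nfkb1, Tcf12, overlapping genes and single markers at 0 were named after their values were seen. Some genes that meet the rule are left out of the text. In the lists 147 symbols were matched to a gene and 2 were not. Alternatives used other scaling factors and filters, DESeq2 1.42.0, limma 3.58.1 (voom, or log2 of RPKM plus 0.5 or 0.1), a replicate block and each library left out. The tests were tried on simulated data. Figures used matplotlib 3.10.9.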

Additional observations from a re-analysis of the deposited data

How the results depend on the processing

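Rag1, Rag2, Dntt and Srsf1 kept their direction and call under all 15 alternatives, with log2 fold changes from 0.84 to 0.94, 1.09 to 1.19, 0.68 to 0.78 and -1.45 to -1.31. On log2 RPKM plus 0.5 (mean RPKM of at least 0.1), plus 0.1, and plus 0.5 (mean of at least 1), limma called 528, 774 and 1200 genes against 2408 (181, 300 and 538 higher, 347, 474 and 662 lower), 3 of the 10 genes each time and 6 genes of the 6 fixed lists each time. Prkdc then had 0.39, 0.42 and 0.39 (adjusted p = 0.217, 0.214 and 0.15) and Dclre1c -0.49, -0.51 and -0.49 (0.0836, 0.0753 and 0.0502), and the cause was not tested. Without single libraries the number called among the 10 was 4 to 5, Prkdc had 0.39 to 0.50 and Dclre1c -0.56 to -0.45. The uncalled genes changed sign without single libraries, with ranges of -0.0060 to 0.23 for Xrcc6, -0.36 to 0.38 for Xrcc5, -0.35 to 0.011 for Xrcc4, -0.16 to 0.042 for Lig4 and -0.315 to 0.38 for Nhej1. Xrcc5 also changed sign with limma-voom (0.0016) and log2 RPKM plus 0.1 (0.0020). With a replicate block 2809 genes were called, the same 5 of the 10 among them, and Xrcc5 was at 0.0021. The labels tie no WT library to a KO library, so the numbers were not taken as pairs. Deviations of same-numbered libraries correlated at -0.04. With 2 libraries per group the deviations within a group mirror each other, so this value cannot decide on pairing. Nhej1 had few counts and a wide spread between replicates, and the parts of depth and spread in its wide interval were not tested.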
